A study of Mus musculus with 7 samples.

Results

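Zinc, copper and iron reach every cell through a small set of carriers, and cells bind, store and export them because the free ions are toxic. The genes described here encode those proteins in mice. They were taken by name from the annotation of the array. The names were those of the SLC39 zinc importers, the SLC30 zinc exporters and the metallothioneins, together with 14 named genes of copper and iron transport, storage and regulation. The rule found 39 genes, read by 61 probe sets with 1 gene symbol each, among 17097 such genes on the array. Mt2, Slc11a2 and Ireb2 also fall under these names but were not analysed here. No probe set carried the symbol of Mt2 or Ireb2 alone, and the 2 probe sets of Slc11a2 also carried another symbol.

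The cells came from colon adenomas of mice with a Tomato reporter in one Mex3a allele, sorted for the epithelial surface protein Epcam and for Tomato. All animals carried Villin CreERT2, a tamoxifen-inducible Cre driven in gut epithelium, and 1 floxed Apc allele (fl/+). All received 4 injections of tamoxifen and then 2% dextran sulfate sodium in the drinking water for 5 days, and adenomas were taken 2 months later. The 2 genotypes are Mex3a Tom/+ and tom/flox in the design text, and the sample labels give only WT (4 arrays) and KO (3 arrays). Recombination by this Cre is limited to gut epithelium. Ages are not stated. Mex3a encodes an RNA-binding protein of intestinal progenitors, and the comparison asks what its loss changes in adenoma cells whose Mex3a promoter is active. In bulk samples, fewer cells of a type and less RNA per cell cannot be told apart.

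Members of the SLC39 (ZIP) family carry zinc into the cytosol, from outside the cell or from organelles, and members of the SLC30 (ZnT) family carry it out or into vesicles. Metallothioneins are small cysteine-rich proteins that bind zinc and copper. Their genes and Slc30a1 are classic targets of the zinc-sensing transcription factor MTF1, which binds metal-response elements. Iron enters through the transferrin receptor Tfrc or, in absorptive cells, after reduction by Cybrd1. It is stored in ferritin and leaves through the exporter Slc40a1 (ferroportin), while the iron-regulatory proteins Aco1 and Ireb2 act on the translation and stability of ferritin and Tfrc mRNA. The arrays measure mRNA, not that control of translation, protein or metal content.

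The labels held on Mex3a itself, where every KO array lay below every WT array. On the probe set with the higher mean, WT arrays averaged 7.33 ± 0.22 (SD, n = 4) and KO arrays 6.18 ± 0.11 (SD, n = 3) on the log2 scale. The fitted difference of that probe set was -1.13 (limma, adjusted p = 0.284 over all probe sets). Mex3a itself thus did not reach an adjusted p under 0.05, and a gene that misses it here may still differ. Over 12822 genes tested, limma called 0 genes (0%) at an adjusted p under 0.05, and at an unadjusted p under 0.05 there were 916 higher and 546 lower in KO. All 11 epithelial markers listed passed the level filter, with a mean log2 level of 10.4 to 10.6 in WT and 10.3 to 10.6 in KO. Of macrophage markers, 5 of 10 on the array passed it, with list means of 5.32 to 5.57 in WT and 5.37 to 5.49 in KO. Leukocyte, fibroblast and endothelium markers passed it in 11 of 14, 5 of 9 and 5 of 7. Single markers in these lists, named for their values, were high. Lyz2 had a mean of 12.03 in WT and 12.45 in KO, and Vim of 11.50 and 11.18. Neither overlapped between groups, as in 2.68% of all genes higher and 3.23% lower in KO. The labels do not tell whether arrays of a group came from different animals, so the p-values cover only the variation among these arrays, part of which may be technical. The number of arrays limits precision.

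Of the 34 genes of the rule that were tested, 3 (8.82%) stood higher in KO at an unadjusted p under 0.05, against 7.14% of all genes. Slc30a1 and Slc30a4, both zinc exporters, were 2 of them. The bases just before their annotated starts are shown because both differences were positive and because Slc30a1 is a known MTF1 target. They are the 250 bases before the start in RefSeq for GRCm38.p6, at chr1:191906531-191906780 on the plus strand for Slc30a1 and chr2:122702664-122702913 on the minus strand for Slc30a4. Capitals mark each match to the core of the metal-response element, searched as TGCACNC and TGCGCNC on both strands, so that a match on the opposite strand appears as its reverse complement.
Slc30a1: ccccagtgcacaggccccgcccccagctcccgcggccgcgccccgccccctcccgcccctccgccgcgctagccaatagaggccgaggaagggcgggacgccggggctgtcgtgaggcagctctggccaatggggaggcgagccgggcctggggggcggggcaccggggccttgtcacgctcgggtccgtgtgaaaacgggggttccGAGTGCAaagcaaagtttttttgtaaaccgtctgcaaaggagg
Slc30a4: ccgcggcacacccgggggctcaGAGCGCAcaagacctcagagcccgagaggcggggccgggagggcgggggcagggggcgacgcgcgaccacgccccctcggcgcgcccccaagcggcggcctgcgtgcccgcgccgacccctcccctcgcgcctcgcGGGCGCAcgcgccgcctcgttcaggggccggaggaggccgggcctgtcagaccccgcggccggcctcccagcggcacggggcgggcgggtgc

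The Slc30a1 window holds 1 match, which begins 43 bases before the start, and the Slc30a4 window holds 2, which begin 228 and 92 bases before it. All 3 matches lie on the opposite strand. No window was found for Slc39a6, the other member higher in KO at an unadjusted p under 0.05. Windows were found for 34 of the 42 gene names covered by the rule. Of their 41 windows, 18 (43.9%) hold at least 1 match, against 21.4% of all 32851 windows of this length. The windows of these genes are richer in G and C, with a median of 62.0% against 52.4%, and the motif is itself rich in G and C. The 2 windows shown are richer still, at 71.2% for Slc30a1 and 82.8% for Slc30a4. Whether that composition accounts for the larger share was not tested. A match is a run of letters and shows no binding, and members whose interval included 0 also held a match, such as Slc30a5, Slc39a3 and Atp7b. A window of Slc39a5, which was lower in KO at an unadjusted p under 0.05, held 1 as well.

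Of the 39 genes, 34 passed the filter on level and were tested, and none passed the threshold; the smallest adjusted p was 0.388 (limma). At an unadjusted p under 0.05 there were 3 members higher in KO (8.82%) and 1 lower (2.94%), where 7.14% and 4.26% of all genes tested were higher and lower. Every KO array lay above every WT array in 2 members and below it in 0, against 2.68% and 3.23% of all genes. A difference of at least 0.5 on the log2 scale was seen in 2 members, against 1.27% of all genes. With 34 members, each of these shares rests on 3 genes or fewer. A positive difference was found in 20 members and a negative one in 14, against 43.9% positive over all genes. The median difference of the members was 0.014 and that of all genes -0.019, on a log2 scale on which the median SE of a difference was 0.093. In size the differences were also ordinary, with a median of 0.095 without regard to sign against 0.094 over all genes.

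**Figure D1:**
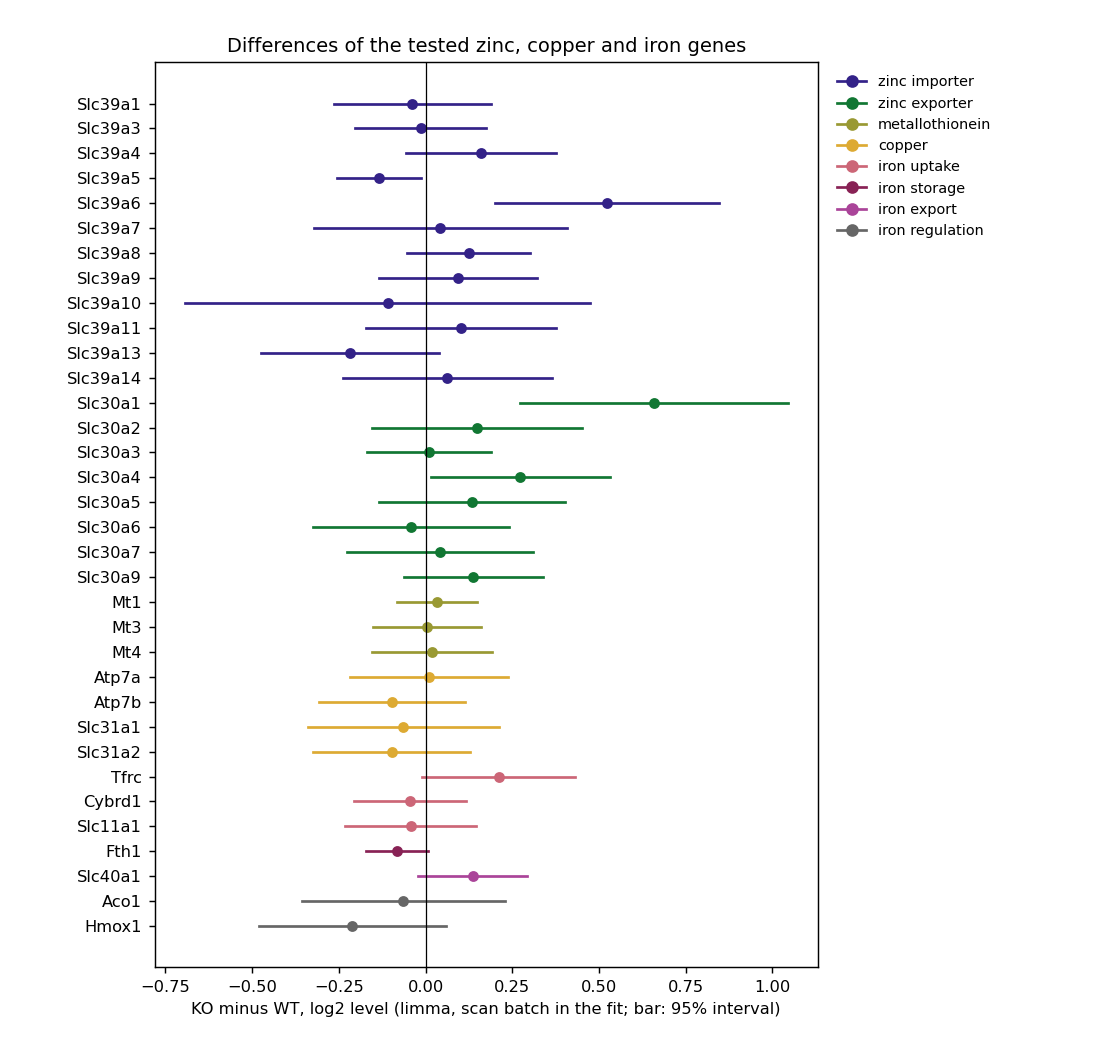
KO minus WT difference in log2 level for each of the 34 tested members, coloured by role, with the 95% interval of the limma fit that holds scan batch. The intervals of Slc30a1, Slc39a6, Slc30a4 and Slc39a5 leave out 0 before adjustment for the number of genes tested, and those of the other members include it.

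The zinc exporters had positive differences in 7 of 8 tested members, with a median of 0.14. Slc30a1, the exporter of the plasma membrane, showed the largest difference of all members. Its log2 level was 6.73, 7.38, 6.62 and 6.96 in WT replicates 1 to 4, and 7.71, 7.32 and 7.58 in KO replicates 1 to 3. WT replicate 2 lay at 7.38, above KO replicate 2, and the other WT arrays lay below all KO arrays. The fitted difference was 0.66 (SE 0.17, 95% interval 0.27 to 1.04), or 1.58-fold, with an adjusted p of 0.388 over all genes (limma). The two-sided exact permutation p was 0.0857, where the 35 splits of the arrays allow no less than 0.0286. The difference was nearly the same in the 2 scan batches, 0.65 in batch 1 (2 WT arrays and 1 KO array) and 0.66 in batch 2 (2 arrays of each). Leaving out 1 array at a time gave 0.55 to 0.77.

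A second Slc30a1 probe set did not show this difference. It read 6.34, 6.52, 6.70 and 6.62 in WT and 6.54, 6.52 and 6.47 in KO, with the KO arrays inside the WT range. Its fitted difference was -0.054, with a 95% interval of -0.27 to 0.16 that leaves out the value of the first probe set. With the mean of both probe sets as the level of the gene, the difference was 0.30 (limma, adjusted p = 0.425). The part of the transcript that each probe set reads was not analysed here.

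Slc30a4, which loads zinc into intracellular vesicles, read 7.68, 7.47, 7.30 and 7.63 in WT and 7.96, 7.69 and 7.64 in KO. KO replicate 1 was the highest of the 7 arrays, and KO replicate 3, at 7.64, lay below WT replicate 1. The difference was 0.27 (SE 0.11, 95% interval 0.014 to 0.53), or 1.21-fold, with an adjusted p of 0.428 (limma). It was 0.38 in scan batch 1 and 0.20 in scan batch 2.

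Slc30a2 fills secretory vesicles with zinc, in the mammary gland and in Paneth cells among others. It read 11.13, 11.30, 11.14 and 10.60 in WT and 11.18, 11.14 and 11.14 in KO. The KO arrays lay close together within the WT range, which WT replicate 4 widened downwards, and the difference was 0.15 (95% interval -0.16 to 0.45). Without WT replicate 4 it was -0.019. Of the remaining exporters, Slc30a5, Slc30a6 and Slc30a7 supply the Golgi and secretory pathway, Slc30a9 acts in mitochondria and Slc30a3 is the carrier of synaptic vesicles. Their differences lay between -0.042 for Slc30a6 and 0.14 for Slc30a9, and each interval included 0. Slc30a8, the carrier of insulin granules, and Slc30a10, a manganese exporter, lay below the level filter at a mean of 5.18 and 4.64 in WT.

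Of the zinc importers, 12 of 14 were tested, with 7 positive and 5 negative differences and a median of 0.053. Slc39a6, an importer of the plasma membrane first described as an oestrogen-induced gene, was higher in every KO array, as in 2.68% of all genes. It read 8.29, 8.36, 7.94 and 7.81 in WT and 8.58, 8.37 and 8.79 in KO. The groups were separated by a narrow gap, since KO replicate 2 lay just above WT replicate 2, and the WT arrays of scan batch 2 were lower than those of scan batch 1. The difference was 0.52 (SE 0.14, 95% interval 0.20 to 0.85), or 1.44-fold, with an adjusted p of 0.388 (limma). The two-sided exact permutation p was 0.0571, and 0.0556 when arrays were exchanged only within scan batch, the smallest those 18 arrangements can give. It was 0.25 in scan batch 1 and 0.70 in scan batch 2, and without KO replicate 3 it was 0.37.

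As for Slc30a1, the second probe set of Slc39a6 read otherwise. Its levels were 7.67, 7.60, 7.92 and 7.54 in WT and 7.64, 7.47 and 7.51 in KO, with overlap and a difference of -0.14 (95% interval -0.41 to 0.13). The mean of both probe sets gave 0.19 (limma, adjusted p = 0.497).

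**Figure D2:**
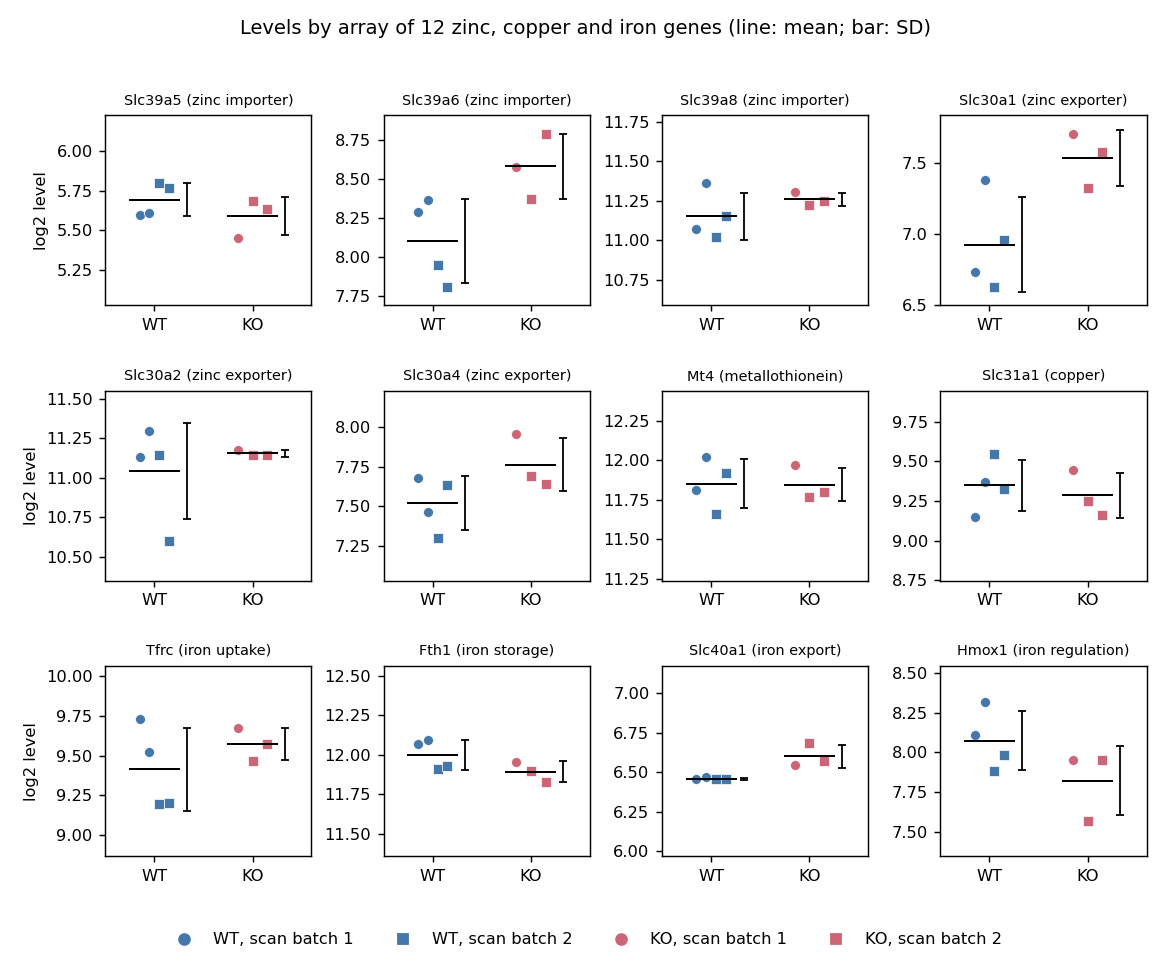
Log2 level in each array of the 12 members described array by array, 1 panel a gene, with circles for scan batch 1 and squares for scan batch 2; lines are group means and bars the SD. KO and WT arrays are separated in Slc39a6, by a narrow gap, and in Slc40a1, where the 4 WT arrays lie between 6.46 and 6.47; in the other 10 genes they overlap.

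Slc39a5, which sits on the basolateral side of enterocytes, was the 1 member lower in KO at an unadjusted p under 0.05. It read 5.60, 5.61, 5.80 and 5.77 in WT and 5.45, 5.68 and 5.64 in KO. In each scan batch the KO arrays lay below the WT arrays, but batch 2 stood higher than batch 1 and the groups overlapped over all arrays. The difference was -0.13 (SE 0.053, 95% interval -0.26 to -0.013), with an adjusted p of 0.419 (limma), and its level was not far above the filter at 5.28.

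Slc39a8, a carrier of zinc and manganese, read 11.07, 11.36, 11.02 and 11.15 in WT and 11.30, 11.22 and 11.25 in KO. The KO arrays lay inside the WT range, and the difference of 0.12 had an interval of -0.053 to 0.30. Its other probe set gave -0.12. Slc39a4, the apical carrier of dietary zinc whose human counterpart is mutated in acrodermatitis enteropathica, read 9.37, 9.40, 9.40 and 9.17 in WT and 9.40, 9.58 and 9.51 in KO. The difference was 0.16 with an interval of -0.056 to 0.38. WT replicate 4 was low, and the other WT arrays lay at or below KO replicate 1.

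Among the importers of inner membranes, Slc39a13 of the endoplasmic reticulum and Golgi had the most negative difference, -0.22 (95% interval -0.48 to 0.038). It was 0.030 in scan batch 1 and -0.38 in scan batch 2. Slc39a7, which releases zinc from the endoplasmic reticulum, also split by batch, at -0.38 and 0.32, and Slc39a10 of the plasma membrane at -0.83 and 0.37. In both genes KO replicate 1, the single KO array of batch 1, was the lowest array. Over all tested members the 2 batches gave differences of opposite sign in 21 of 34 (61.8%), against 49.5% of all genes. The remaining importers tested, Slc39a1, Slc39a3, Slc39a9, Slc39a11 and Slc39a14, differed by -0.038 to 0.10, and Slc39a2 and Slc39a12 lay below the filter.

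The metallothioneins did not differ between genotypes beyond the spread of the arrays. Mt1 read 11.84, 11.79, 11.67 and 11.75 in WT and 11.76, 11.78 and 11.83 in KO. All KO arrays lay inside the WT range, and the difference of 0.034 had a 95% interval of -0.082 to 0.15. A second Mt1 probe set ran from 7.87 in KO replicate 1 to 9.01 in KO replicate 3, with the WT arrays from 8.03 to 8.57 between them, and its interval of -0.54 to 0.65 was far wider. The probe sets of Mt3, known from brain, and Mt4, known from stratified squamous epithelium, also gave differences near 0. Mt3 had a WT mean of 11.59 ± 0.12 (SD, n = 4), a KO mean of 11.58 ± 0.10 (SD, n = 3) and a difference of 0.0042 (95% interval -0.15 to 0.16). Mt4 read 11.81, 12.02, 11.66 and 11.92 in WT and 11.97, 11.77 and 11.80 in KO, all 3 inside the WT range, and its difference of 0.018 had an interval of -0.15 to 0.19. Metallothionein genes are close in sequence, so what these probe sets read is uncertain as to gene.

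In the 4 copper genes the differences lay between -0.097 and 0.010, and each interval included 0. Slc31a1 (CTR1), the main copper importer, read 9.15, 9.37, 9.55 and 9.33 in WT and 9.44, 9.25 and 9.16 in KO. The arrays of both genotypes were mixed, and the difference of -0.064 had an interval of -0.34 to 0.21, with 0.18 in scan batch 1 and -0.23 in scan batch 2. Slc31a2, a relative found on intracellular membranes, differed by -0.097 (95% interval -0.32 to 0.13). Of the copper pumps, Atp7a, which sends copper from enterocytes to the blood, differed by 0.010 (interval -0.22 to 0.24) and Atp7b, best known for copper excretion by the liver, by -0.097 (interval -0.31 to 0.11).

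Iron uptake was read through Tfrc, Cybrd1 and Slc11a1, and none of them passed the test. The Tfrc probe set with the highest mean read 9.73, 9.52, 9.20 and 9.20 in WT and 9.67, 9.47 and 9.57 in KO. The WT arrays of scan batch 1 lay near the KO arrays, and those of scan batch 2 below them. The difference was 0.21 (SE 0.096, 95% interval -0.011 to 0.43; limma, adjusted p = 0.445), with 0.043 in batch 1 and 0.32 in batch 2. A second Tfrc probe set went the other way, at 8.36, 7.97, 7.82 and 7.91 in WT against 7.25, 7.70 and 7.82 for KO. Its difference was -0.43 (SE 0.18; limma, adjusted p = 0.480 over all probe sets). On it 2 KO arrays lay below all WT arrays, and KO replicate 3 was level with the lowest of them. The third gave -0.17 (95% interval -0.48 to 0.14), so the direction of Tfrc depended on the probe set. Cybrd1, the ferric reductase of the brush border, differed by -0.046 (interval -0.21 to 0.12), and Slc11a1, a metal carrier of macrophage phagosomes, by -0.043 (interval -0.23 to 0.15).

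Fth1, the heavy chain of ferritin, read 12.07, 12.09, 11.91 and 11.93 in WT and 11.96, 11.90 and 11.83 in KO. The arrays of scan batch 1 were above those of scan batch 2 within each genotype, and in each batch the KO arrays lay below the WT arrays. The difference was -0.083 (SE 0.039, 95% interval -0.17 to 0.0066), with an adjusted p of 0.453 (limma). The light chain Ftl1, named after its value was seen, differed by -0.12 (SE 0.051; limma, adjusted p = 0.435). Its WT mean was 11.61 ± 0.064 (SD, n = 4) and its KO mean 11.49 ± 0.035 (SD, n = 3). The groups did not overlap, as in the 3.23% of all genes that were lower in KO without overlap.

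Slc40a1 (ferroportin), the one known cellular iron exporter, stood slightly higher in KO without overlap, as in 2.68% of all genes. It read 6.46, 6.47, 6.46 and 6.46 in WT and 6.55, 6.68 and 6.57 in KO. The WT arrays were almost identical, with an SD of 0.0071 that is far below the median SE of the fit, so the gap between the groups is small in absolute terms. The difference was 0.14 (SE 0.068, 95% interval -0.022 to 0.29), with an adjusted p of 0.470 (limma) and a two-sided exact permutation p of 0.0286, the smallest possible. The other Slc40a1 probe set gave 0.20 (95% interval -0.060 to 0.47) with overlapping groups. Heph, the oxidase that works with it in the gut, lay below the filter, with a WT mean of 4.08 ± 0.017 (SD, n = 4) and a KO mean of 4.10 ± 0.021 (SD, n = 3).

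Hmox1, which breaks heme down and frees its iron, read 8.11, 8.32, 7.88 and 7.98 in WT and 7.95, 7.57 and 7.95 in KO. KO replicate 2 was the lowest array, and the other KO arrays lay inside the WT range. The difference was -0.21 (SE 0.12, 95% interval -0.48 to 0.058; limma, adjusted p = 0.503). Aco1, the iron-regulatory protein that doubles as cytosolic aconitase, differed by -0.064 (interval -0.36 to 0.23), with -0.28 in scan batch 1 and 0.082 in scan batch 2. Hmox1, Slc40a1 and Slc11a1 are abundant in macrophages. The 5 tested macrophage markers had 1 positive and 4 negative differences with a median of -0.040, where 43.9% of all genes were positive. The part of macrophages in the differences of these genes was not tested.

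Probe sets of the same gene often disagreed. Of the 19 members with more than 1 probe set, 9 (47.4%) had differences of both signs, against 50.3% of all 7180 genes with several. In a fit of all 28898 probe sets with 1 symbol, 3 of the 61 members' probe sets were higher and 3 lower in KO at an unadjusted p under 0.05 (4.92% each), against 6.32% and 3.92% of all probe sets. In 5 genes with both signs the extremes lay at least 0.3 apart: Slc30a1, Slc39a6, Slc39a14, Slc39a9 and Tfrc. These genes were chosen for that gap, which is given with no test.

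The gap itself can be followed array by array as the level of the probe set with the more positive difference minus that of the other. For Slc39a6 the WT arrays had gaps of 0.62, 0.76, 0.023 and 0.27 and the KO arrays 0.93, 0.90 and 1.28. For Tfrc the WT arrays had gaps of 1.38, 1.56, 1.37 and 1.28 and the KO arrays 2.42, 1.77 and 1.75. In both genes the gap was wider in every KO array, as it was in Slc39a14, a carrier of zinc, manganese and iron. The choice of these genes already makes the fitted gap wider in KO. How often the gap separates the groups over all genes was not counted, so this is description only. In Slc30a1 and in Slc39a9, a Golgi importer, 1 KO array lay within the WT range. One of the 3 Slc39a9 probe sets was lower in every KO array, at 6.63, 6.64, 6.66 and 6.80 in WT against 6.32, 6.43 and 6.53. Its difference was -0.28 (SE 0.077; limma, adjusted p = 0.422 over all probe sets). The probe set with the highest mean for that gene gave 0.094, with overlap.

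**Figure D3:**
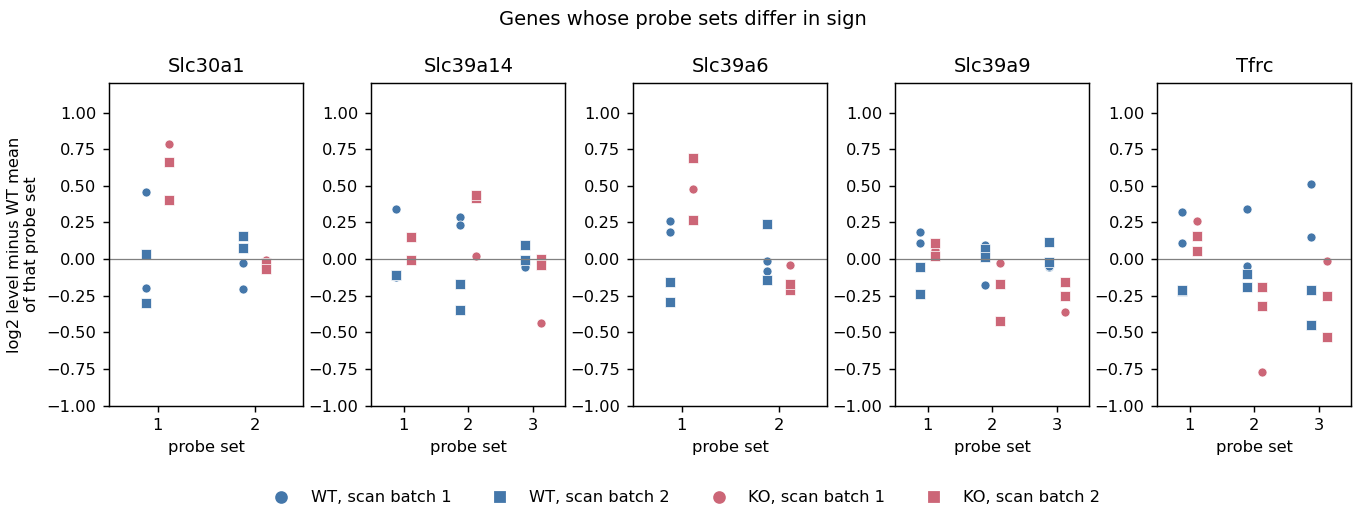
Log2 level of each probe set minus its own WT mean, for the 5 members whose probe sets differ in sign and lie at least 0.3 apart; probe sets are numbered from the highest mean level, points are arrays, circles mark scan batch 1 and squares scan batch 2. KO points lie above 0 for probe set 1 of Slc30a1, Slc39a6, Slc39a9 and Tfrc and probe set 2 of Slc39a14, and below 0 for probe set 2 of Slc39a6 and probe sets 2 and 3 of Slc39a9 and Tfrc.

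Array weights changed the call of Slc30a1 and Slc39a6 more than the size of their differences. With a weight fitted to each array, Slc30a1 was at 0.72 (limma, adjusted p = 0.0277) and Slc39a6 at 0.55 (limma, adjusted p = 0.0385). They were the 2 of 34 members called, where 1370 of all 12822 genes were called. Those weights ran from 0.297 for KO replicate 1 to 3.04 for KO replicate 2. Over all alternatives the adjusted p ran from 0.0277 to 0.991 for Slc30a1 and from 0.0385 to 0.991 for Slc39a6. A measure of RNA quality, the log2 level of the 3' Gapdh control probe set minus that of the 5' one, ran from -0.24 to -0.15 in KO and from -0.21 to -0.12 in WT. With it as a covariate, Slc30a1 was at 0.48 and Slc39a6 at 0.34 (limma, adjusted p = 0.622 for both). Of 6 goblet cell markers tested, 5 had a positive difference and 1 was higher at an unadjusted p under 0.05, and 0 passed the threshold (limma). Over all genes 43.9% were positive and 7.14% higher. The goblet median was 0.45, and the list means overlapped, at 7.19 to 7.94 in WT and 7.61 to 8.10 in KO. Of 10 Paneth and deep crypt secretory markers listed, only 4 had a probe set of 1 symbol. These 4 were positive, with a median of 0.20, and 1 was higher at an unadjusted p under 0.05. Absorptive colonocyte markers had 6 positive and 6 negative differences, with 2 higher at an unadjusted p under 0.05. That list also holds the hormone gene Sst, at -0.16, which is not a marker of absorptive cells. The part of these cell types in either result was not tested.

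**Figure D4:**
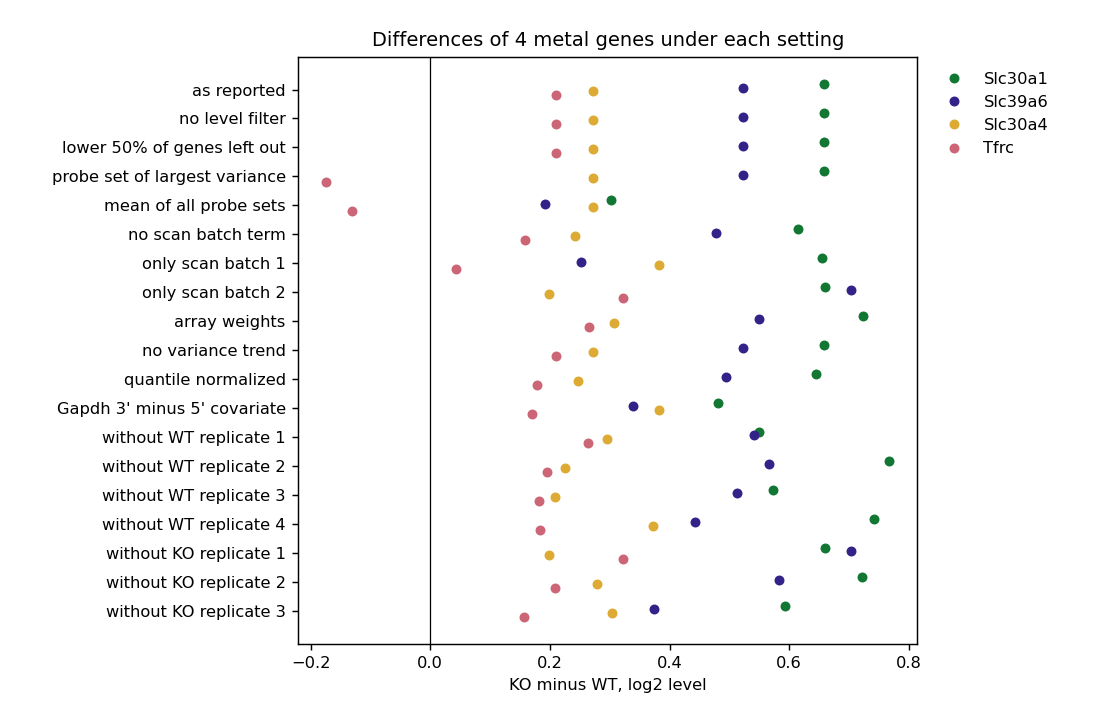
KO minus WT difference in log2 level of Slc30a1, Slc39a6, Slc30a4 and Tfrc as reported and under each alternative, 1 row a setting. Slc30a1, Slc39a6 and Slc30a4 stay above 0 in all of them, at 0.30 to 0.77, 0.19 to 0.70 and 0.20 to 0.38. Tfrc falls below 0 with another choice of probe set. That choice kept the same probe set for Slc30a1 and Slc39a6, and Slc30a4 has only 1. The other probe sets of Slc30a1 and Slc39a6, at -0.054 and -0.14, are in no row alone.

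Partner genes of the metal pathways were read from 4 lists, and 0 of their genes passed the threshold (limma). Their counts at an unadjusted p under 0.05 stand against 7.14% higher and 4.26% lower in KO over all genes tested. Of 32 tested zinc and copper accessory genes, 3 were higher and 0 lower in KO at an unadjusted p under 0.05, with a median of 0.022. They were Cox17, a copper chaperone of cytochrome oxidase, at 0.27 (SE 0.076), Xiap, at 0.22 (SE 0.087), and the zinc protease Mmp7, at 0.21 (SE 0.089). Of 36 iron regulators 2 were higher and 2 lower, with a median of 0.0089. Cisd2, an iron-sulfur protein, differed by 0.25 (SE 0.088), Epas1, the hypoxia factor HIF-2 alpha, by -0.20 (SE 0.071), and Vhl, which directs its breakdown, by 0.30 (SE 0.12).

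Of 21 tested genes of heme synthesis, export and breakdown, 0 were higher and 2 lower in KO at an unadjusted p under 0.05, and 6 had a positive difference, against 43.9% positive over all genes. Abcb8, a mitochondrial ABC transporter, showed the largest difference of these, -0.52 (SE 0.14, limma, adjusted p = 0.388). Its WT mean was 8.49 ± 0.26 (SD, n = 4) and its KO mean 8.01 ± 0.23 (SD, n = 3). Every KO array lay below every WT array, as in 3.23% of all genes. The gap was very narrow, with WT replicate 2 at 8.156 and KO replicate 3 at 8.153. Blvrb, a biliverdin reductase acting after Hmox1, differed by -0.27 (SE 0.10), and Uros, a heme synthesis enzyme, by -0.21 (SE 0.10). Of 18 genes of iron-sulfur cluster assembly, 2 were higher and 0 lower in KO at an unadjusted p under 0.05, where 7.14% and 4.26% of all genes were. Fdx1, a ferredoxin, differed by 0.30 (SE 0.10) and the assembly factors Bola3 and Isca2 by 0.21 (SE 0.082) and 0.17 (SE 0.080), and in all 3, which were taken for their small p, every KO array lay above every WT array, as in 2.68% of all genes.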

How the data were processed

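The deposited values are log2 levels, 1 for each probe set and array, and RMA (background correction, normalization across arrays and summary per probe set) is named for them per the submitters' processing notes, with no version. Per the labels' protocols, RNA of 2000 sorted cells was amplified over 24 cycles, which can add spread between arrays. The summary step can give several arrays nearly the same value, and 2 or 3 KO arrays tied to 3 decimals in 5 tested members. Of 45141 probe sets, 28898 had 1 gene symbol. The probe set of highest mean stood for each of 17097 genes, and the lowest 25% by mean level (under 5.28) were left out, leaving 12822.

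The KO minus WT difference was fitted in limma 3.58.1 under R 4.3.3 (lmFit, then eBayes with trend), holding scan batch as a covariate, with two-sided tests, 4 residual degrees of freedom and Benjamini-Hochberg adjustment over all genes at 0.05. Means and SDs are of the values themselves. The fit was tested on simulated data. Exact permutation used all 35 splits. Members and lists were chosen with earlier results of these data known. Members described array by array were those with an unadjusted p under 0.05, no overlap, a difference of at least 0.5, or the highest mean in their role; in each list of partner genes, the 3 of smallest p. Further probe sets, the other members given array by array and Ftl1 were chosen after their values were seen.

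Alternatives changed the level filter, the choice or mean of probe sets, the scan batch term, array weights, variance trend, quantile normalization and a Gapdh covariate, used each scan batch alone, or left out 1 array. Replicate numbers follow submission order and only name arrays. Promoter windows are from RefSeq.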

Additional observations from a re-analysis of the deposited data

Results flagged for a closer look

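In 6 of the 39 members, 1 of the 4 WT arrays stood apart from the other WT arrays by more than Dixon's 95% limit on its gap; chance gives about 1 in 20. WT replicate 4 was low in 3 of them, at 5.41 against 5.72 to 5.77 for Slc30a5, 7.02 against 7.48 to 7.53 for Slc39a11 and 9.17 against 9.37 to 9.40 for Slc39a4, and high in Slc11a1, at 6.36 against 6.26 to 6.28. WT replicate 2 was high for Slc39a14, at 9.34 against 8.87 to 8.89, and for Slc40a1, at 6.47 against 6.46. In Slc40a1 and Slc11a1 the other WT arrays were nearly identical, so a small gap is enough.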

How the results depend on the processing

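Over all genes the count past the threshold was 0 except with array weights (1370 of 12822) and with 1 array left out (0 to 2). For the members it was 2 of 34 with array weights and 0 otherwise. The 4 members at an unadjusted p under 0.05 became 2 with the probe set of largest variance, 2 with no scan batch term and 2 after quantile normalization. They became 8 in scan batch 2, 14 with array weights and 7 with the Gapdh covariate. With 1 array left out they were 2 to 9, the highest without KO replicate 1. The share of all genes at an unadjusted p under 0.05 is not given for these settings. These counts therefore cannot be read as particular to the members. The members' median moved to 0.069 in scan batch 2, 0.043 with array weights, -0.012 over all probe sets and -0.0096 to 0.069 with 1 array left out.

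Signs turned in 5 of the 12 members described array by array, none of them with an unadjusted p under 0.05. No alternative put Slc30a1 or Slc39a6 on its other probe set alone, which gave -0.054 and -0.14. Slc39a8 was at -0.12 and Tfrc at -0.17 with the probe set of largest variance, and Tfrc at -0.13 with the mean of probe sets. Mt4 was at -0.0063 with no scan batch term, -0.0038 in scan batch 2, -0.017 with the Gapdh covariate and -0.042 to 0.089 with 1 array left out. Slc30a2 was at -0.036 in scan batch 1 and -0.019 to 0.27 with 1 array left out. Slc31a1 was at 0.18 in scan batch 1, 0.011 with the Gapdh covariate and -0.23 to 0.032 with 1 array left out. The cause was not tested. No paired analysis was possible because the labels give no replicate numbers that link KO and WT arrays.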
